A study of Mus musculus with 12 samples.

Results

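The Wnt ligands, their receptors and their antagonists were followed in mouse embryonic fibroblasts (strain C57BL/6) grown in culture. Genes were taken by symbol: every gene named Wnt, Fzd, Sfrp, Dkk or Rspo with a number, and Frzb, Wif1, Lrp5, Lrp6, Ror1, Ror2, Ryk, Axin2, Lef1, Tcf7, Nkd1, Nkd2, Notum, Znrf3 and Rnf43. This gave 57 of the 48709 genes in the count tables: 19 Wnt ligands, 10 Frizzled receptors, 5 co-receptors and other receptors, 11 secreted antagonists, 7 genes of the R-spondin axis and 5 intracellular feedback genes and targets. One of the 57, Rspo4os, is an antisense RNA that matched by its name alone. The family was put forward because of the values of Wnt5a and Wnt9a in these same samples, so those 2 genes are described here with no test.

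Wnt proteins are secreted, lipid-modified ligands that bind Frizzled receptors on the cell surface. With the co-receptors Lrp5 or Lrp6 they stabilise beta-catenin, which acts with TCF and LEF factors on target genes such as Axin2, whereas ligands such as Wnt5a mostly act through Ror2 and Ryk without beta-catenin. Secreted antagonists bind the ligands or co-receptors outside the cell, and R-spondins keep Frizzled receptors on the surface by blocking the ubiquitin ligases Znrf3 and Rnf43. In fibroblasts the pathway is known for its part in tissue patterning, migration and matrix production.

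RNA sequencing libraries were made from 12 samples in 4 groups of 3: wild-type (WT) and TAZKo cells, each genotype kept either in normoxia or for 24 h in hypoxia. TAZKo names cells that lack tafazzin, the mitochondrial enzyme that remodels the lipid cardiolipin, and the WT cells are described as isogenic. The labels used here state neither how the knockout was made, nor how many lines or clones it comprises, nor the oxygen level. No label says that the 3 samples of a group came from separate cultures, so p-values measure only the spread between these samples, which may be technical.

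Total counts ran from 21039451 to 31204510 per library. Taz, the gene of tafazzin, averaged 34.6 CPM (counts scaled to a common library size by the trimmed mean of M values) in WT and 42.2 CPM in TAZKo normoxia, and 25.1 and 33.8 CPM in hypoxia. It was higher in the libraries labelled TAZKo (log2 difference 0.29, edgeR adjusted p = 0.0139, in normoxia; 0.43, edgeR adjusted p = 0.00112, in hypoxia), so the transcript level does not show the knockout. Counts per gene cannot show whether the transcript is intact, and every genotype direction given here rests on the labels. Of 10 fibroblast markers 8 could be tested, with a summed level of 10376 to 13259 CPM in every library, but the defining markers Thy1 and Lum were at or near 0 and Col1a2 averaged 2.12 to 5.33 CPM. Epithelial markers, carried by Krt14 and Krt18, summed to 315 to 431 CPM in WT and 196 to 258 CPM in TAZKo libraries. Endothelial markers, carried by Tek and Kdr, summed to 14.5 to 21 and 3.84 to 7.45 CPM. Pecam1 went the other way in normoxia, averaging 0.227 CPM in WT and 0.577 CPM in TAZKo. Pluripotent markers, carried by Nanog, summed to 1.86 to 2.43 CPM in WT and 0.875 to 1.95 CPM in TAZKo libraries. Pou5f1 was at 0 in every library. Of 4 macrophage and blood markers, Ptprc and Adgre1 were at 0 in all 3 libraries of the WT groups and of TAZKo normoxia, but the list summed to 4.42 to 5.57 CPM in normoxia and, in hypoxia, to 11.7 to 13.8 CPM in WT and 7.99 to 9.91 CPM in TAZKo, carried by Cd68 and Csf1r. Muscle markers, carried by Des, summed to 2.85 to 4.95 CPM in WT and 5.53 to 10.1 CPM in TAZKo libraries, with Myod1 at 0 in every library. Neural markers, carried by Tubb3, summed to 33.2 to 40 and 22.1 to 27.8 CPM in normoxia (WT, then TAZKo) and to 44.1 to 61.1 and 34.6 to 36.9 CPM in hypoxia. Single fibroblast markers moved under their steady sum: Col1a1 averaged 2835 and 1153 CPM in normoxia (WT, then TAZKo) and 3605 and 1376 CPM in hypoxia, Pdgfrb 49.6 and 104, then 24.3 and 46 CPM, and Vim 1280 and 1743, then 2947 and 3412 CPM. The part of these markers in the results that follow was not tested. In bulk RNA, fewer cells of a type and less RNA per cell cannot be told apart. WT normoxia replicate 1 stood apart from the other libraries on the third principal component, which held 6.1% of the variance.

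Of the 57 genes, 37 had enough counts for a test and 20 did not. The filter was passed in each group alone by 29 of the 37, and the other 8 (Wnt5a, Wnt5b, Sfrp1, Rspo3, Wif1, Wnt1, Wnt2b and Fzd9) passed through the groups in which they were high. Dkk2, Fzd10 and Wnt3a had no count in any library, which allows up to 3 counts, or 0.0927 to 0.15 CPM depending on the library; these limits cover counting error only. In all, 16 of the 20 untested genes never exceeded 3 counts in a library, among them every Dickkopf antagonist, Rnf43, Rspo2, Rspo4 and Sfrp5. Above that lay Rspo4os, Wnt7a, Frzb and Nkd1, the last an intracellular inhibitor of the pathway with 3, 5 and 2 counts in WT normoxia, 0, 0 and 2 in WT hypoxia and 0 in all 6 TAZKo libraries. Frzb, a secreted Frizzled-related antagonist, had 8 summed counts in WT and 0 in TAZKo libraries of normoxia, and 11 and 2 in hypoxia, and the ligand Wnt7a had 0 and 11, then 11 and 15. These genes lay below the filter. In the same test with no filter, 3 of them differed in normoxia, Nkd1 and Frzb lower (edgeR adjusted p = 0.013 and 0.0238) and Wnt7a higher in TAZKo (edgeR adjusted p = 0.00801), and Wnt7a was higher in hypoxia in WT (edgeR adjusted p = 0.00315). Each of these calls compares a few counts with a group that has none.

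Promoter sequences are shown for a few genes, chosen by hand for the patterns described here. They come from the 38 genes of the family with an entry in the RefSeq table (GRCm38.p6). Other genes with such patterns are left out, and Wnt5a has no entry there. Each run holds the 250 bases before the listed start that lies furthest upstream, 5′ to 3′ on the gene's strand: Wnt9a chr11:59306680-59306929 (plus strand), Wnt5b chr6:119544348-119544597 (minus), Wnt11 chr7:98834862-98835111 (plus), Wnt10b chr15:98778151-98778400 (minus), Rspo1 chr4:124986180-124986429 (plus) and Lef1 chr3:131110047-131110296 (plus). Capitals mark ACGTG and GCGTG, the core letters of the element bound by hypoxia-inducible factors, and CTTTGAT and CTTTGTT, letters bound by TCF and LEF factors, on either strand.
Wnt9a: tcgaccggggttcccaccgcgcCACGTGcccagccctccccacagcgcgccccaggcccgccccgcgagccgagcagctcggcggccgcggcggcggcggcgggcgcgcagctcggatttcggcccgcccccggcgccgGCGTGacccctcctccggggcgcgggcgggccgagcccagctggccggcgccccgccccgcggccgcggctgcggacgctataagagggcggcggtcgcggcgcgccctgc
Wnt5b: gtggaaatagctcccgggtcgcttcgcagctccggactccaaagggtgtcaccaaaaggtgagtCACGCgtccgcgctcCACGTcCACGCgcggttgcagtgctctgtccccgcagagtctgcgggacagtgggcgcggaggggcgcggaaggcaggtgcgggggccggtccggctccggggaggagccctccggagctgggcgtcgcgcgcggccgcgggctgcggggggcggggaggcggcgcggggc
Wnt11: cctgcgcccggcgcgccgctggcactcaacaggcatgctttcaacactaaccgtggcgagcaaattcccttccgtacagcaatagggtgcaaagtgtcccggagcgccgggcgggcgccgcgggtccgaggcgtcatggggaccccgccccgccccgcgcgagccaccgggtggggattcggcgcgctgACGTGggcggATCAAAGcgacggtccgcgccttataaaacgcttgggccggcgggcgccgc
Wnt10b: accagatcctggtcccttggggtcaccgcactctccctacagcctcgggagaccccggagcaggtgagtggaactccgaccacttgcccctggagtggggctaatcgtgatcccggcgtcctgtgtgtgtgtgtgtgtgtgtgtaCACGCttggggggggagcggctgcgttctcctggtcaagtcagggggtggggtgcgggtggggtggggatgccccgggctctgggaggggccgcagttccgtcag
Rspo1: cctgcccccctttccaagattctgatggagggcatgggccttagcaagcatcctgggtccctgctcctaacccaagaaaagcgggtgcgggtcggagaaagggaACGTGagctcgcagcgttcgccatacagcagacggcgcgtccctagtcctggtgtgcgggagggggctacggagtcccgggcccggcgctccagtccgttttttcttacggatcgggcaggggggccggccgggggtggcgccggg
Lef1: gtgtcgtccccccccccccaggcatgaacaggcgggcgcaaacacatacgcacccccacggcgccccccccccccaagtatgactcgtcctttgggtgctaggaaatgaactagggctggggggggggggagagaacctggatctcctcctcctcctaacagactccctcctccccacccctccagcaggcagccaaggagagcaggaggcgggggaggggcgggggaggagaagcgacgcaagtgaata
The Wnt9a promoter held 3 matches to the hypoxia letters, since its palindrome reads ACGTG on both strands, 228 and 227 bases before the start, and GCGTG lies 111 bases before it. Wnt5b also held 3, and Wnt11, Wnt10b and Rspo1 held 1 each. The Wnt11 window had in addition 1 match to CTTTGAT, on the opposite strand 51 bases before the start, close to its ACGTG at 61 bases. The Lef1 window held neither set. Such matches are common: ACGTG or GCGTG occurred in 38.6% of 32851 promoter windows of this length and in 24 of the 46 windows of the family, and CTTTGAT or CTTTGTT in 8.06% and in 4 of the 46. A match is a description of letters, not of a bound site.

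Among the ligands, Wnt4 had the highest level per length in every group, and Wnt5a and Wnt5b were near absent in the libraries labelled TAZKo. Wnt4, a ligand known from kidney and gonad development, stood in normoxia at 25 ± 3.66 CPM per kb of exon (SD, n = 3) for WT and 30.3 ± 2.76 for TAZKo libraries, and in hypoxia at 24.2 ± 1.83 and 43.5 ± 1.1. The next ligand on this scale was Wnt10a in normoxia (5.99 ± 0.959 in WT, 6.44 ± 0.52 in TAZKo) and Wnt11 in hypoxia (6.39 ± 0.479 and 3.97 ± 0.435). Below them, in WT normoxia, Wnt11 and Wnt9a (3.36 ± 0.477 and 3.2 ± 0.101 CPM per kb) and then Wnt6, Wnt5a and Wnt5b (2.36 ± 0.543, 2.22 ± 0.246 and 2.03 ± 0.15) lay within their spread of each other. Over all 19 ligands, tested or not, the summed level was 42.9 to 61.6 CPM per kb per library. Wnt4 made up 49.7% to 55.7% of that sum in WT libraries and 62.9% to 73.6% in TAZKo libraries. Wnt5a and Wnt5b together made up 7.03% to 9.99% and 0.208% to 0.579%.

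**Figure D1:**
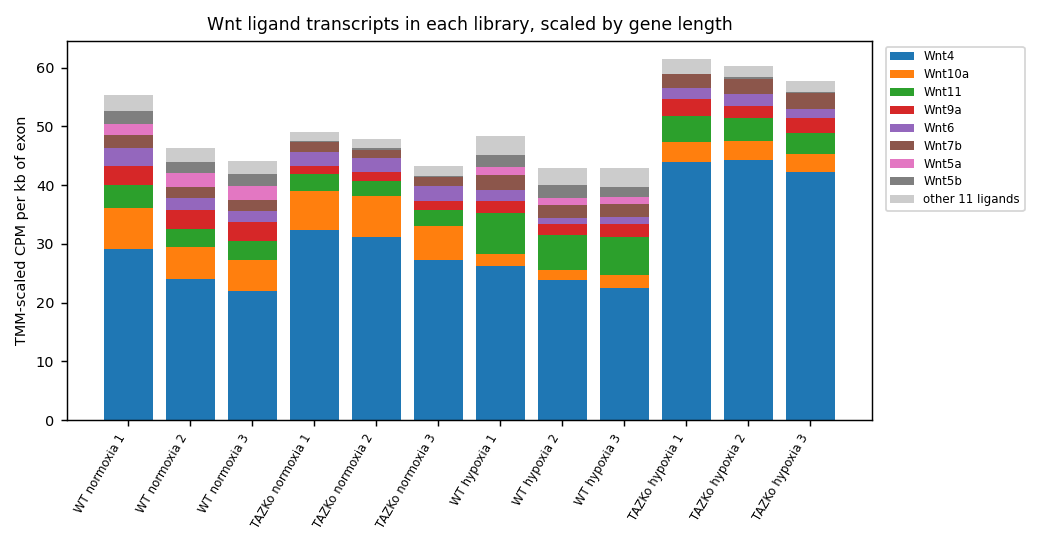
Each bar is 1 library and shows the level of all 19 Wnt ligands in CPM per kb of exon, stacked from 0. Wnt4 fills 49.7% to 55.7% of each WT bar and 62.9% to 73.6% of each TAZKo bar, and the Wnt5a and Wnt5b segments are visible in the WT bars alone.

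Wnt5a, the ligand best known for signalling without beta-catenin (ENSMUSG00000021994, GRCm38 chromosome 14 from 28504750 to 28527448), had 342, 420 and 511 counts in WT normoxia and 2, 0 and 0 in TAZKo normoxia. In hypoxia it had 218, 203 and 258 counts in WT and 0, 1 and 0 in TAZKo libraries. The gene was thus present in all 6 WT libraries and at or under the floor of 3 counts in all 6 TAZKo libraries. The summed, scaled counts gave a WT to TAZKo ratio of 690 in normoxia (95% exact interval 191 to 5706) and 761 in hypoxia (136 to 30100), intervals that cover counting error only. In WT cells Wnt5a averaged 17.4 ± 1.93 CPM (SD, n = 3) in normoxia and 9.8 ± 0.967 CPM in hypoxia, a log2 difference of -0.83, and the 2 sets of libraries did not overlap.

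Wnt9a, a ligand of joint and blood stem cell development (ENSMUSG00000000126, chromosome 11 from 59306928 to 59333552), was 10.8, 10.9 and 10.3 CPM in WT and 4.29, 4.77 and 4.79 CPM in TAZKo normoxia. After hypoxia it was 6.90, 6.24 and 7.24 CPM in WT and 9.91, 7.20 and 8.33 CPM in TAZKo libraries. WT libraries were lower in hypoxia than in normoxia and TAZKo libraries were higher, with no overlap within either genotype, whereas WT and TAZKo overlapped in hypoxia. The log2 differences were -1.20 (TAZKo against WT, normoxia), 0.31 (hypoxia), -0.65 (hypoxia against normoxia, WT) and 0.86 (TAZKo). Its neighbour Wnt3a, 16.2 kb away, was at 0 in all libraries.

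Of the 10 other tested ligands, 5 differed between TAZKo and WT in normoxia (1 higher, 4 lower) and 6 in hypoxia (3 higher, 3 lower) at an edgeR adjusted p under 0.05. Of all 14408 tested genes, 30.4% differed in normoxia and 32.8% in hypoxia; since the family was put forward from these same contrasts, nothing is read from its share against them. Wnt5b, the paralogue of Wnt5a (chromosome 6 from 119432531 to 119544347), was 5.79, 5.0 and 5.4 CPM in WT and 0.505, 0.737 and 0.618 CPM in TAZKo normoxia. In hypoxia it was 5.5, 5.92 and 4.84 CPM in WT and 0.34, 0.657 and 0.348 CPM in TAZKo libraries. Wnt5b did not pass the filter on low counts in TAZKo hypoxia alone, so in hypoxia it was tested because WT is high. WT libraries were 8.66-fold higher in normoxia (log2 difference for TAZKo -3.11, SE 0.196, edgeR adjusted p = 6.84e-08) and 11.7-fold higher in hypoxia (-3.54, SE 0.208, edgeR adjusted p = 4.34e-08). Wnt10b, a ligand known to hold back fat cell formation, was 2.92, 2.37 and 1.48 CPM in WT and 1.18, 1.08 and 1.33 CPM in TAZKo normoxia, and 5.0, 4.44 and 5.49 against 2.14, 1.94 and 2.09 CPM in hypoxia. TAZKo libraries lay below WT libraries in each condition (log2 differences -0.88, edgeR adjusted p = 0.00926, and -1.28, edgeR adjusted p = 0.000179). Wnt2, a ligand of lung and placental development, was 3.54, 3.03 and 3.37 CPM in WT and 1.77, 1.69 and 1.85 CPM in TAZKo normoxia (-0.9, edgeR adjusted p = 0.00167). Wnt7b, which acts in lung and kidney, was 10.7, 9.12 and 8.66 against 7.74, 6.54 and 7.23 CPM there (-0.4, edgeR adjusted p = 0.0134).

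Wnt4 was higher in TAZKo than in WT hypoxia. It was 110, 100 and 94.3 CPM in WT hypoxia and 184, 186 and 177 CPM in TAZKo hypoxia, a 1.8-fold difference (log2 0.85, SE 0.0983, edgeR adjusted p = 2.19e-05). In normoxia the libraries overlapped, with 122, 101 and 91.9 CPM in WT and 136, 131 and 114 CPM in TAZKo. That difference passed narrowly (0.27, edgeR adjusted p = 0.0489) and was lost on leaving out any library but WT normoxia replicate 1 and TAZKo normoxia replicate 3, with adjusted p up to 0.262. The call was also lost with DESeq2's size factors, DESeq2's own test, the filter at a mean of 1 CPM and the compared samples alone. Wnt4 and Ror1 lie on chromosome 4, whose median tested gene was higher in TAZKo by 0.118 in normoxia and 0.133 in hypoxia (log2). Rspo1, on the same chromosome, was lower in TAZKo. The part of this shift in their values was not tested. The other genotype calls among ligands in hypoxia were Wnt10a, Wnt11 and Wnt2b. Wnt10a, a ligand of skin and tooth development, was 5.2, 4.35 and 5.6 CPM in WT and 8.46, 7.68 and 7.84 CPM in TAZKo hypoxia (0.65, edgeR adjusted p = 0.00214). Wnt11, which steers cell movement without beta-catenin, was 28.4, 24.5 and 26.4 CPM in WT and 18.3, 16.2 and 14.7 CPM in TAZKo hypoxia (-0.69, edgeR adjusted p = 0.000222). In normoxia Wnt11 missed the threshold (edgeR adjusted p = 0.0814); it passed with the replicate number as a block (-0.27, edgeR adjusted p = 0.0248) and with no filter on low counts (-0.30, edgeR adjusted p = 0.0397). Wnt2b was low throughout, at 0.3 to 0.473 CPM in WT and 0.732 to 1.07 CPM in TAZKo hypoxia (1.08, edgeR adjusted p = 0.0212), and its call was lost without WT hypoxia replicate 1, WT hypoxia replicate 2 or TAZKo hypoxia replicate 1 (adjusted p up to 0.0782). Wnt2b did not pass the filter on low counts in WT hypoxia alone, so there it was tested because the other groups are higher.

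**Figure D2:**
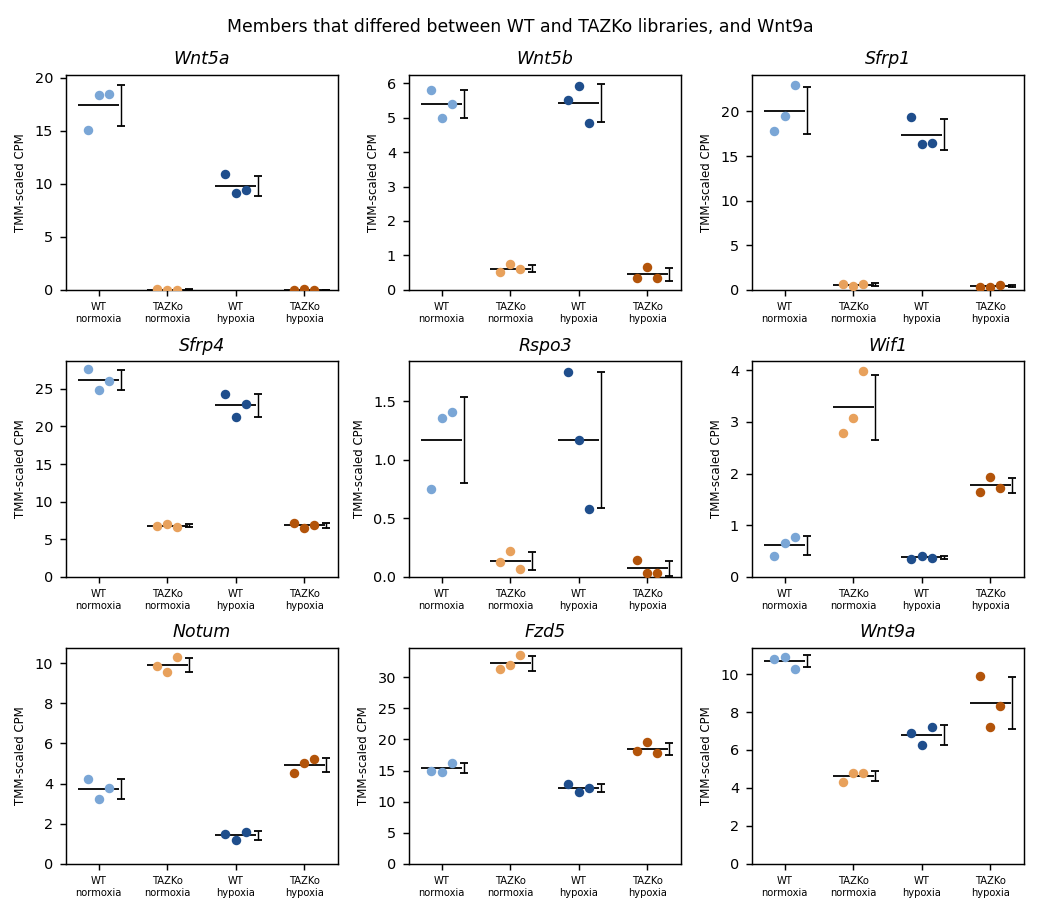
Points are single libraries in TMM-scaled CPM for 7 genes that differed between the genotypes and for Wnt5a and Wnt9a, with the mean as a line and the SD as a bar (n = 3). Wnt5a, Wnt5b, Sfrp1 and Rspo3 lie at or close to 0 in the TAZKo groups, and Wif1 and Notum lie higher there than in WT.

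Among the 9 tested Frizzled receptors, 4 differed between the genotypes in normoxia (3 higher and 1 lower in TAZKo) and 4 in hypoxia (3 higher, 1 lower). Of all tested genes, 30.4% and 32.8% differed, and nothing is read from the count beside them. Fzd5, a receptor of canonical ligands, was 15, 14.8 and 16.2 CPM in WT and 31.3, 32 and 33.6 CPM in TAZKo normoxia, and 12.8, 11.6 and 12.2 against 18.2, 19.6 and 17.8 CPM in hypoxia. The sets did not overlap, and TAZKo was 2.1-fold higher in normoxia (log2 1.07, SE 0.0713, edgeR adjusted p = 1.16e-07) and 1.52-fold higher in hypoxia (0.61, SE 0.0743, edgeR adjusted p = 3.56e-05). Fzd1 was also higher in TAZKo, at 85.3, 90.3 and 84.9 against 65.1, 60.8 and 60.6 CPM in normoxia (0.48, edgeR adjusted p = 7.28e-05) and 99.4, 104 and 93.5 against 74.4, 66.9 and 68.7 CPM in hypoxia (0.5, edgeR adjusted p = 4.99e-05). Fzd4, the receptor of the vascular ligand Norrin, was 58.2, 56.8 and 55.2 CPM in WT and 75.5, 81.3 and 71.8 CPM in TAZKo hypoxia (0.43, edgeR adjusted p = 0.00204). Fzd8 was the receptor that was lower in TAZKo, at 2.73, 2.17 and 2.38 against 4.69, 4.26 and 4.2 CPM in normoxia (-0.85, edgeR adjusted p = 0.00142). Its hypoxia call (-0.53, edgeR adjusted p = 0.0317) was lost without WT hypoxia replicate 1 or 3 or any of the 3 TAZKo hypoxia libraries, with adjusted p up to 0.114. Fzd8 lies on chromosome 18, where the median tested gene was lower in TAZKo than the median of all genes by a log2 difference of -0.228 in normoxia and -0.273 in hypoxia, a shift whose part in the Fzd8 values was not tested.

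Fzd6, a receptor of the planar polarity branch, had the highest level per length of the Frizzled genes in every group, at 57.5 ± 4.98, 62.9 ± 0.605, 61.3 ± 6.77 and 65.5 ± 4.4 CPM per kb (WT then TAZKo libraries, first normoxia, then hypoxia). Fzd2 came next (28.1 to 36.8 CPM per kb). Neither Fzd6, Fzd3 nor the co-receptor Lrp6 passed the test on the filtered genes in any comparison, but with no filter Fzd3 was lower in WT hypoxia (-0.29, edgeR adjusted p = 0.0413, against 0.114). Fzd3 lay between 10.9 and 15 CPM and Lrp6 between 110 and 158 CPM, with WT normoxia replicate 1 the lowest Lrp6 value.

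Of the 5 co-receptors and other receptors, 3 differed by genotype in normoxia (2 higher, 1 lower in TAZKo) and 1 in hypoxia, beside 30.4% and 32.8% of all tested genes. Lrp5, which carries the beta-catenin branch with Lrp6, was 211, 174 and 169 CPM in WT and 127, 128 and 132 CPM in TAZKo normoxia (log2 -0.52, SE 0.0884, edgeR adjusted p = 0.000589). In hypoxia it was 210, 174 and 185 against 169, 181 and 165 CPM, and the sets overlapped. Lrp5 lies on chromosome 19, whose median tested gene was also lower in TAZKo, by -0.277 in normoxia and -0.274 in hypoxia on the log2 scale; its part in the Lrp5 values was not tested. Ror1, a receptor tyrosine kinase for Wnt5a, was 3.32, 5.26 and 4.27 CPM in WT and 5.89, 6.98 and 6.86 CPM in TAZKo normoxia (0.62, edgeR adjusted p = 0.00831). Ror2, the main Wnt5a receptor of skeletal development, was 6.5, 6.64 and 6.7 CPM in WT and 8.07, 8.96 and 8.19 CPM in TAZKo hypoxia. That difference (0.35, edgeR adjusted p = 0.0314) was lost on leaving out any 1 of the 6 hypoxia libraries, with adjusted p up to 0.123. Ryk, a kinase-like Wnt receptor, was 199 to 218 CPM in WT and 235 to 256 CPM in TAZKo normoxia (0.22, edgeR adjusted p = 0.0152), a call lost without WT normoxia replicate 3 or TAZKo normoxia replicate 2 or 3 (adjusted p up to 0.142).

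The secreted antagonists did not move in 1 direction: Sfrp1 and Sfrp4 were lower in TAZKo in both conditions, Wif1 and Notum were higher in both, and Sfrp2 was higher in normoxia. Sfrp1 did not pass the filter on low counts in TAZKo hypoxia alone, nor did Wif1 in either WT group, so there they were tested because the other genotype is high. Sfrp1, a secreted Frizzled-related protein that binds Wnt ligands (chromosome 8 from 23411502 to 23449632), was 17.8, 19.5 and 23.0 CPM in WT and 0.631, 0.433 and 0.711 CPM in TAZKo normoxia, and 19.4, 16.3 and 16.5 against 0.34, 0.346 and 0.592 CPM in hypoxia. WT libraries were 33.1-fold higher in normoxia (log2 for TAZKo -5.05, SE 0.182, edgeR adjusted p = 3.8e-10) and 39.6-fold higher in hypoxia (-5.31, SE 0.195, edgeR adjusted p = 6.87e-10). The median tested gene on chromosome 8 was also lower in TAZKo, by -0.171 and -0.138 on the log2 scale, a shift whose part in the Sfrp1 values was not tested. Sfrp4, a relative of Sfrp1 (chromosome 13 from 19623104 to 19632994), was 27.6, 24.9 and 26.0 CPM in WT and 6.73, 7.06 and 6.61 CPM in TAZKo normoxia, and 24.3, 21.2 and 23.0 against 7.19, 6.47 and 6.83 CPM in hypoxia. Its log2 differences were -1.94 (SE 0.0818, edgeR adjusted p = 1.78e-09) and -1.74 (SE 0.0823, edgeR adjusted p = 4.8e-09).

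In the other direction, Wif1, an inhibitor that binds Wnt ligands directly, was 0.398, 0.658 and 0.761 CPM in WT and 2.78, 3.08 and 3.99 CPM in TAZKo normoxia, and 0.35, 0.404 and 0.364 against 1.65, 1.94 and 1.71 CPM in hypoxia. TAZKo was 5.36-fold higher in normoxia (log2 2.42, edgeR adjusted p = 2.23e-06) and 4.71-fold higher in hypoxia (2.23, edgeR adjusted p = 2.86e-05). Wif1 lies on chromosome 10, where the median tested gene was higher in TAZKo by 0.304 and 0.294 on the log2 scale, and the part of that shift in the Wif1 values was not tested. Notum, the enzyme that removes the lipid of Wnt proteins, was 4.25, 3.25 and 3.77 CPM in WT and 9.85, 9.58 and 10.3 CPM in TAZKo normoxia (1.4, edgeR adjusted p = 1.26e-06), and 1.5, 1.17 and 1.6 against 4.52, 5.05 and 5.23 CPM in hypoxia (1.79, edgeR adjusted p = 1.02e-06). Of its exon bases 38.1% overlap antisense genes, and no source used here says that counting used strand, so its reads cannot be told apart from theirs. The same limit holds, over 6.61% to 17.8% of exon bases, for Fzd5, Sfrp2, Lef1, Rspo3, Wnt11 and Wnt7b. Sfrp2 was 53.4, 50.1 and 47.3 CPM in WT and 103, 98.5 and 105 CPM in TAZKo normoxia, a 2.03-fold difference (1.02, SE 0.0832, edgeR adjusted p = 8.37e-07). The median tested gene on its chromosome 3 was higher in TAZKo normoxia by 0.121 (log2), while Lef1 on the same chromosome was lower. The part of that shift in the Sfrp2 values was not tested. After hypoxia the Sfrp2 levels were 43.7, 44.5 and 34.9 against 45.7, 45.9 and 45.5 CPM, which did not pass the test.

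In the R-spondin axis, Rspo1 was lower in TAZKo in both conditions. Rspo1 (chromosome 4 from 124986430 to 125009099) was 27.0, 22.2 and 26.2 CPM in WT and 10.6, 10.7 and 14.3 CPM in TAZKo normoxia, and 6.95, 4.89 and 4.95 against 2.72, 3.15 and 3.21 CPM in hypoxia. The log2 differences were -1.08 (SE 0.138, edgeR adjusted p = 5.4e-05) and -0.87 (SE 0.179, edgeR adjusted p = 0.0022), with no overlap in either condition. Rspo3, on chromosome 10, passed the filter only through the WT groups in which it is high and rested on few reads: 17, 31 and 39 counts in WT and 3, 5 and 2 in TAZKo normoxia, and 35, 26 and 16 against 3, 1 and 1 in hypoxia. Its differences passed the test (-3.17, edgeR adjusted p = 0.000589; -4.03, edgeR adjusted p = 0.000296) and ran against the upward median of its chromosome. Znrf3, the ubiquitin ligase that removes Frizzled receptors from the surface, averaged 21.1 CPM in WT and 24.3 CPM in TAZKo hypoxia (0.21, edgeR adjusted p = 0.0439), and this call was lost on leaving out any library but WT normoxia replicate 1 and TAZKo hypoxia replicate 1 (adjusted p up to 0.163).

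The intracellular genes that respond to beta-catenin did not share a genotype direction. Tcf7, a TCF factor, was 42.8, 41.4 and 42.3 CPM in WT and 49.9, 51.4 and 55.7 CPM in TAZKo normoxia, and 23.0, 19.1 and 19.4 against 29.0, 34.4 and 32 CPM in hypoxia. The hypoxia difference (log2 0.64, SE 0.0859, edgeR adjusted p = 8.14e-05) was the firmer, since the normoxia call (0.31, edgeR adjusted p = 0.0101) was lost without TAZKo normoxia replicate 3 (adjusted p = 0.0877) or WT normoxia replicate 2 (adjusted p = 0.0513). Lef1, its relative, was 8.67, 8.12 and 9.74 CPM in WT and 5.39, 6.15 and 7.17 CPM in TAZKo normoxia (-0.5, edgeR adjusted p = 0.00899), and 3.55, 3.10 and 3.42 against 2.82, 3.77 and 3.45 CPM in hypoxia. Axin2, a scaffold of the beta-catenin destruction complex and the standard readout of the canonical branch, was 3.10, 2.19 and 2.03 CPM in WT and 1.35, 1.17 and 2.16 CPM in TAZKo normoxia, and 3.70, 3.01 and 3.93 against 3.40, 2.80 and 3.28 CPM in hypoxia. Axin2 libraries of the genotypes overlapped in both conditions. With the replicate number as a block, Axin2 passed in normoxia (-0.60, edgeR adjusted p = 0.0415, against 0.0723 without the block), as it did with no filter on low counts (-0.62, edgeR adjusted p = 0.0126).

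In all, 21 of the 35 tested genes other than Wnt5a and Wnt9a differed between TAZKo and WT in normoxia (10 higher, 11 lower; median log2 difference 0.08) beside 30.4% of all tested genes. In hypoxia 19 of 35 differed (11 higher, 8 lower; median 0.10) beside 32.8%. The median over all tested genes was 0.00992 in normoxia and -0.00783 in hypoxia. Of the 28 such genes that passed the filter in every group alone, 17 (9 higher, 8 lower) and 14 (9 higher, 5 lower) differed. In both conditions 6 genes were higher in TAZKo (Fzd1, Fzd5, Notum, Tcf7, Wif1 and Wnt4) and 7 lower (Fzd8, Rspo1, Rspo3, Sfrp1, Sfrp4, Wnt10b and Wnt5b), and none was called in opposite directions. The normoxia calls of Wnt4 and Tcf7 and the hypoxia call of Fzd8 were lost on leaving out single libraries. The share of all tested genes called alike in both conditions was not taken, so nothing is read from these counts.

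**Figure D3:**
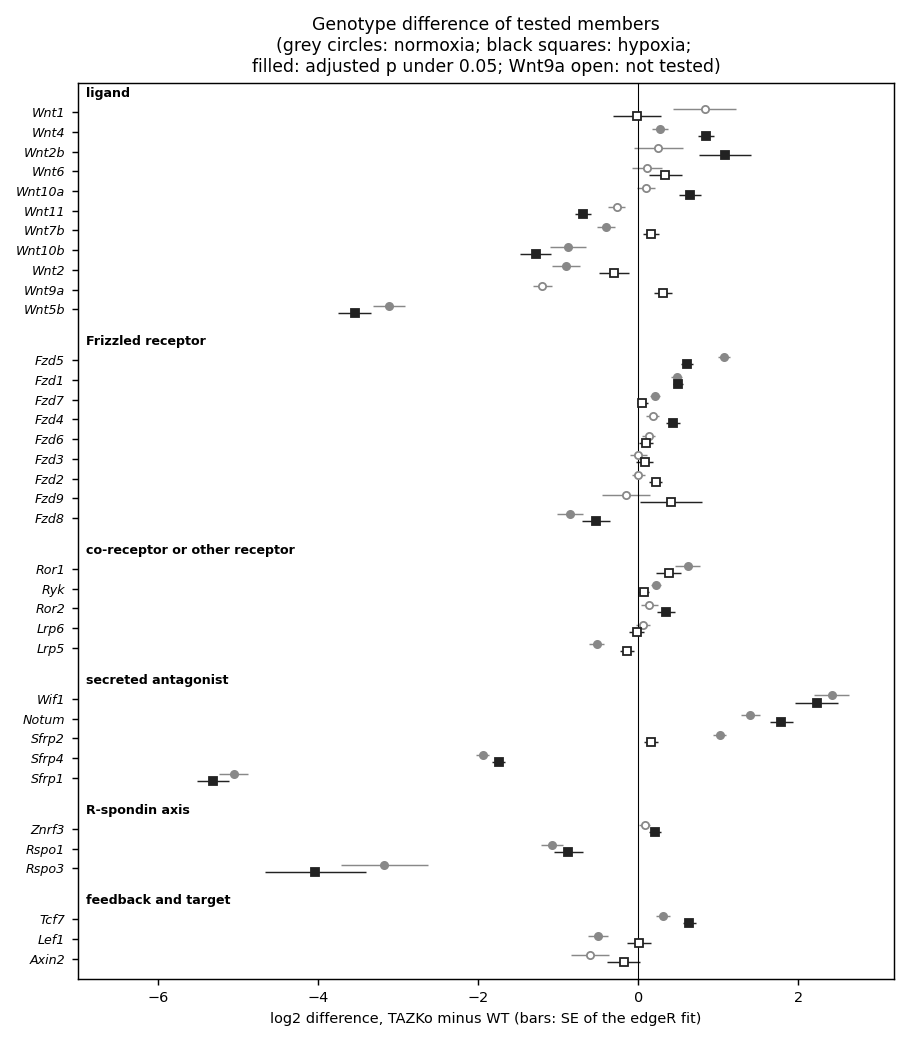
Log2 differences of TAZKo minus WT with their standard errors, grouped by role, in normoxia and in hypoxia; filled points passed an edgeR adjusted p under 0.05. Wnt5a is left out, Wnt9a is drawn open because it was not tested, and the antagonists Sfrp1 (-5.05 and -5.31) and Wif1 (2.42 and 2.23) mark the ends of the range.

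After 24 h of hypoxia the family moved in both directions, with more genes lower than higher in WT. In WT cells 22 of 35 changed (7 higher, 15 lower; median log2 difference -0.21), where 51% of all tested genes changed, 26% higher and 25% lower. In TAZKo cells 21 of 35 changed (9 higher, 12 lower; median -0.13), where 43.8% of all genes did, 22.2% higher and 21.6% lower. The median of all genes was 0.00894 in WT and -0.00875 in TAZKo. Of the 28 genes that passed the filter in every group alone, 20 changed in WT (6 higher, 14 lower; median -0.205) and 20 in TAZKo (9 higher, 11 lower; median 0.03). Scaling by library size alone, which moves that median by -0.106 for WT and by -0.094 for TAZKo, gave 4 higher and 18 lower in WT. By the calls of each genotype, 11 genes fell in both (Fzd4, Fzd5, Lef1, Notum, Ror2, Rspo1, Sfrp2, Tcf7, Wnt10a, Wnt6 and Znrf3) and 5 rose in both (Axin2, Fzd1, Ryk, Wnt10b and Wnt11). The calls of Axin2 in WT, of Fzd1 in both genotypes, and of Ryk, Wnt10b and Wnt6 in TAZKo were each lost under some alternatives. The share of all tested genes called alike in both genotypes was not taken, so nothing is read from these counts.

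Among the genes that fell, Rspo1 changed most. Its level of 22.2 to 27.0 CPM in WT normoxia and 4.89 to 6.95 CPM in WT hypoxia was a 4.53-fold fall (log2 -2.18, SE 0.151, edgeR adjusted p = 6.84e-08), and the TAZKo libraries went from 10.6 to 14.3 CPM to 2.72 to 3.21 CPM, a 3.91-fold fall (-1.97, SE 0.165, edgeR adjusted p = 6.82e-07). Wnt10a was 17.5, 13.5 and 13.3 CPM in WT normoxia against 5.2, 4.35 and 5.6 CPM in hypoxia, and 16.3, 16.9 and 14.5 against 8.46, 7.68 and 7.84 CPM in TAZKo. The falls were 2.91-fold (-1.54, edgeR adjusted p = 4.22e-07) and 1.99-fold (-0.99, edgeR adjusted p = 2.12e-05). Its neighbour Wnt6, a ligand of epithelial development 6.19 kb away on chromosome 1, fell in WT (-0.73, edgeR adjusted p = 0.00861) from 6.55, 4.56 and 4.42 to 4.2, 2.33 and 2.87 CPM. The TAZKo fall of Wnt6 (-0.5, edgeR adjusted p = 0.0488) was lost on leaving out any of the TAZKo normoxia libraries, or TAZKo hypoxia replicate 1 or 3 (adjusted p up to 0.138). Notum fell 2.62-fold in WT (-1.39, edgeR adjusted p = 5.42e-06) and 2-fold in TAZKo (-1, edgeR adjusted p = 1.15e-05).

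Both transcription factors of the list fell as well. Lef1 went from 8.12 to 9.74 CPM in WT normoxia to 3.10 to 3.55 CPM in hypoxia (log2 -1.40, SE 0.139, edgeR adjusted p = 2.05e-06), and from 5.39 to 7.17 to 2.82 to 3.77 CPM in TAZKo (-0.89, edgeR adjusted p = 0.000173). Tcf7 fell by 1.04 on the log2 scale in WT (edgeR adjusted p = 3.4e-07), while TAZKo libraries fell by 0.72 (edgeR adjusted p = 1.23e-05). Among the receptors, Fzd4 was 91.4, 116 and 114 CPM in WT normoxia and 58.2, 56.8 and 55.2 CPM in hypoxia (-0.92, edgeR adjusted p = 1.38e-06), and it fell by 0.67 in TAZKo (edgeR adjusted p = 3.3e-05). Ror2 fell by 0.62 in WT (edgeR adjusted p = 0.000418), while TAZKo libraries fell by 0.41 (edgeR adjusted p = 0.00703), and Znrf3 by 0.38 and 0.25 (edgeR adjusted p = 0.000691 and 0.0132). Fzd8 fell in WT, by 0.51 (edgeR adjusted p = 0.0166), and Wif1 in TAZKo, by 0.9 (edgeR adjusted p = 0.00124). Fzd9 was under 1.1 CPM everywhere and fell in WT (-1.20, edgeR adjusted p = 0.0118), a call lost without WT hypoxia replicate 3 (adjusted p = 0.0519). It passed the filter on low counts only through the normoxia groups in which it is higher. Small falls in WT of Sfrp4 (-0.2, edgeR adjusted p = 0.0404) and Wnt2 (-0.44, edgeR adjusted p = 0.0483) were also lost on leaving out single libraries: WT normoxia replicate 1 or WT hypoxia replicate 2 for Sfrp4 (adjusted p up to 0.0863), and WT normoxia replicate 1 or 3 or WT hypoxia replicate 2 or 3 for Wnt2 (up to 0.0978).

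Of the 10 tested ligands other than Wnt5a and Wnt9a, 3 rose and 3 fell in WT, and 4 rose and 2 fell in TAZKo, where 26% and 22.2% of all tested genes rose. Wnt11 went from 16.0, 12.1 and 13.5 CPM in WT normoxia to 28.4, 24.5 and 26.4 CPM in hypoxia (log2 0.93, SE 0.107, edgeR adjusted p = 8.32e-06), and from 11.9, 11.2 and 11.3 to 18.3, 16.2 and 14.7 CPM in TAZKo (0.51, SE 0.109, edgeR adjusted p = 0.00191). Wnt10b rose 2.24-fold in WT (1.16, edgeR adjusted p = 0.000184) and 1.7-fold in TAZKo (0.76, edgeR adjusted p = 0.0146), the latter lost without TAZKo normoxia replicate 2 (adjusted p = 0.0584). Wnt1, a strong canonical ligand 11.7 kb from Wnt10b on chromosome 15, had 6, 10 and 5 counts in WT normoxia and 20, 15 and 21 in hypoxia (1.46, edgeR adjusted p = 0.00451). It passed the filter on low counts only through the hypoxia groups in which it is high. Wnt7b rose in TAZKo, from 7.74, 6.54 and 7.23 to 11.7, 12.3 and 13.1 CPM (0.79, edgeR adjusted p = 5.01e-05). Axin2 rose in TAZKo (0.97, edgeR adjusted p = 0.0033), where the normoxia and hypoxia libraries did not overlap. In WT, Axin2 overlapped between conditions and passed narrowly (0.55, edgeR adjusted p = 0.0461), a call lost on leaving out any library but WT normoxia replicate 1 and TAZKo normoxia replicate 3 (adjusted p up to 0.218). The WT call was also lost in 6 of the 8 other alternatives, among them the lane as a covariate and DESeq2's own test. Axin2 was thus higher in the same TAZKo hypoxia libraries in which Lef1, Tcf7 and Notum were lower.

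Smaller rises were seen for receptors. Ryk rose by 0.33 on the log2 scale in WT (edgeR adjusted p = 0.000627), from 199, 218 and 214 to 269, 271 and 253 CPM. In WT cells Ror1 and Fzd2 passed with the replicate block (0.36, edgeR adjusted p = 0.0251, and 0.17, edgeR adjusted p = 0.0412), against 0.0762 and 0.103 without the block. In TAZKo cells Lrp5 rose from 127, 128 and 132 to 169, 181 and 165 CPM (0.41, edgeR adjusted p = 0.00189) and Fzd2 from 102, 104 and 102 to 137, 143 and 125 CPM (0.39, edgeR adjusted p = 0.00148). Further calls of 0.17 to 0.23 (Fzd1 in both genotypes, Fzd7 in WT and Ryk in TAZKo), like the normoxia genotype call of Fzd7 (0.21), were each lost on leaving out 7 to 11 of the 12 libraries in turn, with adjusted p up to 0.38.

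**Figure D4:**
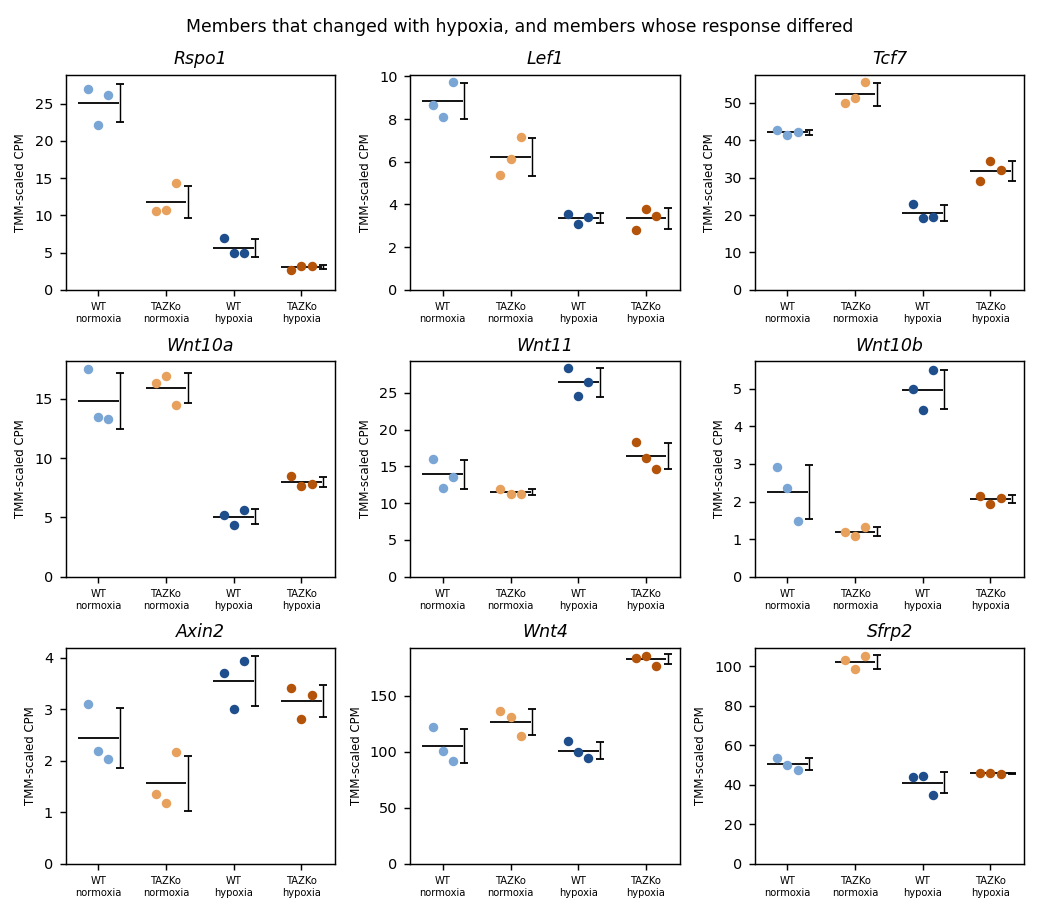
Points are single libraries in TMM-scaled CPM for genes that changed with hypoxia, with the mean as a line and the SD as a bar (n = 3). Rspo1, Lef1, Tcf7 and Wnt10a fall in both genotypes, Wnt11 and Wnt10b rise in both, and Sfrp2 and Wnt4 show the responses that differed between the genotypes.

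The response to hypoxia differed between the genotypes for 3 of the 35 tested genes (the TAZKo response was above that of WT for 1 and below it for 2; median difference of responses 0.20), where 2.43% of all genes differed and the median was -0.0159. Sfrp2 fell 2.24-fold in TAZKo (log2 -1.16, edgeR adjusted p = 1.55e-07) and 1.23-fold in WT (-0.29, edgeR adjusted p = 0.01), a difference of -0.87 (SE 0.118, edgeR adjusted p = 0.00207). It was called in every alternative fit. Its TAZKo libraries lay far above the WT libraries in normoxia and, at 45.5 to 45.9 CPM, just above the highest WT library (44.5 CPM) in hypoxia. Fzd5 fell by 0.8 in TAZKo and by 0.34 in WT, a difference of -0.46 (SE 0.103, edgeR adjusted p = 0.0311). Wnt4 rose in TAZKo (0.53, edgeR adjusted p = 0.000679) while its WT libraries were 91.9 to 122 CPM in normoxia and 94.3 to 110 CPM in hypoxia, a difference of 0.58 (SE 0.138, edgeR adjusted p = 0.0457). These 2 differences were kept on leaving out WT normoxia replicate 1, WT normoxia replicate 3 or WT hypoxia replicate 1, and were lost on leaving out any of the other 9, with adjusted p up to 0.108 for Fzd5 and 0.113 for Wnt4. Without 1 library the number of called genes ran from 1 to 6. With DESeq2's size factors in the edgeR fit it was 2, both with the lower TAZKo response.

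**Figure D5:**
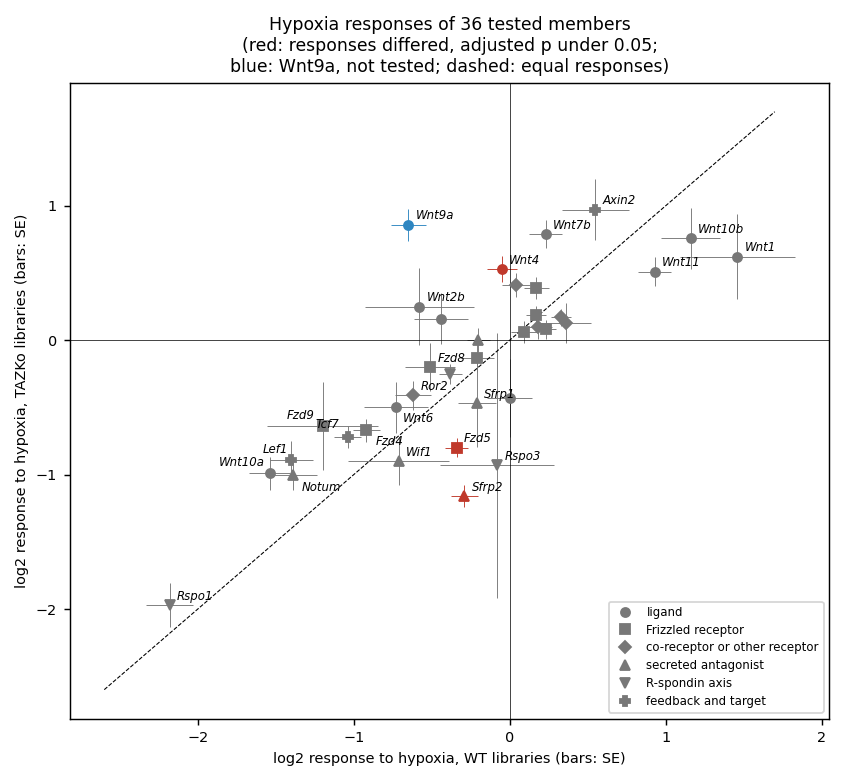
Each point is 1 of 36 tested genes, with the log2 response to hypoxia in WT on the x axis and in TAZKo on the y axis, bars for the standard errors and a dashed line for equal responses. Red points (Wnt4, Fzd5 and Sfrp2) passed the test of the difference, and Wnt9a (-0.65 in WT, 0.86 in TAZKo, blue) was not tested.

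The remainder of the pathway was read from a list of 65 genes set by role, of which 52 were tested. Between TAZKo and WT, 22 of 52 differed in normoxia (14 higher, 8 lower; median log2 0.035) and 25 in hypoxia (14 higher, 11 lower; median 0.015), beside 30.4% and 32.8% of all tested genes. Higher in TAZKo were Ccnd1, the cyclin D1 target of beta-catenin (log2 1.26, edgeR adjusted p = 2.95e-06, before hypoxia and 1.14, edgeR adjusted p = 5.04e-06, after it), and Cd44, an adhesion receptor and target (1.19 in normoxia, edgeR adjusted p = 8.22e-06). Lower were the co-repressor Tle4 (-0.84, edgeR adjusted p = 2.65e-06, and -0.56, edgeR adjusted p = 0.000165) and Bcl9l, a beta-catenin cofactor (-0.71 in normoxia, edgeR adjusted p = 3.67e-05). Tle4 lies on chromosome 19, whose median shift in TAZKo was -0.277 and -0.274, and its part in the Tle4 values was not tested. In hypoxia the polarity genes Celsr1 (0.99, edgeR adjusted p = 1.87e-06) and Daam2 (-1.17, edgeR adjusted p = 3.24e-07) went in opposite directions.

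With hypoxia, 34 of the 52 changed in WT (19 higher, 15 lower) and 31 in TAZKo (19 higher, 12 lower), beside 51% and 43.8% of all tested genes. All 8 tested target genes outside the family rose in TAZKo, where 22.2% of all genes rose, and 7 of the 8 in WT, where 26% did. Fosl1, an AP-1 subunit, rose in WT by log2 2.48 (edgeR adjusted p = 1.98e-09), and its TAZKo rise was 1.98 (edgeR adjusted p = 2.85e-08). Jun, its partner, rose by 1.95 (edgeR adjusted p = 1.11e-09), then in TAZKo by 1.12 (edgeR adjusted p = 3.57e-07), and Myc by 1.63 in WT (edgeR adjusted p = 7.61e-08). These genes also respond to signals other than Wnt. Of the exon bases of Fosl1 57.2%, and of those of Ccnd1 23.4%, overlap a gene on the opposite strand, with the limit given for Notum. Among the 11 nuclear factors and cofactors 5 fell and none rose in WT, while 3 fell and 3 rose in TAZKo; none of the 11 passed edgeR's test of the difference of responses after adjustment, 6 had an unadjusted p under 0.05, and DESeq2 called 1. The co-repressor Tle2 fell by 1.39 in WT (edgeR adjusted p = 4.41e-06); its TAZKo libraries fell by 1.35 (edgeR adjusted p = 3.73e-06). Of the 9 tested planar polarity genes, 5 fell and 2 rose in WT, and 5 fell and 0 rose in TAZKo. Beside both the nuclear and the polarity counts, 25% of all tested genes fell in WT and 21.6% in TAZKo. Celsr1 fell by 1.22 in WT (edgeR adjusted p = 8.5e-08). The 4 genes of this list whose responses differed were Jun (-0.83, edgeR adjusted p = 0.00319), Daam2 (-0.75, edgeR adjusted p = 0.00531), Cd44 (-0.74, edgeR adjusted p = 0.038) and Ptk7 (0.57, edgeR adjusted p = 0.0438). The last 2 calls were lost on leaving out 10 and 8 of the 12 libraries in turn, with adjusted p up to 0.131 and 0.1.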

How the data were processed

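RNA was measured in 12 samples of mouse embryonic fibroblasts, 3 in each of 4 groups; the kit was Illumina TruSeq RNA, per the labels' protocols. The authors deposited 1 table per sample of whole-number read counts per Ensembl gene, with no normalization recorded, on build mm10 per the submitters' processing notes. The aligner, the counting program, its use of strand and the annotation are not given in the sources used here. Gene IDs were matched to symbols and GRCm38 coordinates (48349 of 48709 matched). CPM per kb divides by the length of the merged exons.

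Genes with low counts were removed by filterByExpr (minimum count 10, 4 groups), which left 14408. Counts were scaled by TMM and fitted over all 12 samples with edgeR 4.0.16's quasi-likelihood test (limma 3.58.1, R 4.3.3), 1 coefficient per group, with Benjamini-Hochberg adjustment over all tested genes of a comparison and a threshold of 0.05. The standard error is the log2 difference divided by the square root of F. The common biological coefficient of variation was 8.62%. Totals of 21039451 to 31204510 counts put a floor of 3 counts at 0.0927 to 0.15 CPM. The members and lists were chosen with earlier results of these data known. Every member may be named, and values in every sample are given for Wnt5a, Wnt9a, tested feedback genes and, per comparison and direction, up to 8 called members with the largest change and a mean of at least 1 CPM, with further members given alike; of other pathway genes, up to 3 with at least 5 CPM.

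The titles number the replicates 1 to 3. Deviations from the group mean correlated between same-numbered samples in WT and TAZKo normoxia (r 0.354, 0.149 and 0.228) and in WT normoxia and hypoxia (0.368, 0.204 and 0.152). The remaining comparisons had at least 1 such pair under 0.1. Replicates 2 and 3 also correlated across numbers, at 0.116 and 0.112 between WT and TAZKo normoxia and at 0.147 and 0.18 between WT normoxia and hypoxia. The data thus do not settle whether the numbers pair the samples. The alternatives were the size factors of DESeq2 1.42.0, its own test, unscaled libraries, no filter on low counts, a filter at a mean of 1 CPM, a replicate block, the lane (as named in the deposit) as a covariate, the compared samples alone, and the omission of each library in turn. Lanes were not balanced over oxygen, since replicate 2 lay in lane 4 in both normoxia groups and in lane 5 in both hypoxia groups.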

Additional observations from a re-analysis of the deposited data

Results flagged for a closer look

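The response to hypoxia differed between the genotypes by the test of the difference itself for Sfrp2 (log2 -0.87, TAZKo response minus WT response), Fzd5 (-0.46) and Wnt4 (0.58). Sfrp2 was called in every alternative fit, whereas the calls for Fzd5 and Wnt4 were each lost on leaving out 9 of the 12 libraries in turn. Wnt9a, put forward for its values in these same samples, moved in opposite directions. Its libraries were lower after hypoxia in WT (-0.65) and higher in TAZKo (0.86) without overlap, and the difference was not tested. Opposite responses without overlap were looked for in Wnt5a and Wnt9a alone, so the pattern is a description and no support for a difference.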

How the results depend on the processing

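Of 86 called changes among the 35 tested genes, 66 held under every alternative that gave a value, 20 were lost under at least 1 and none reversed. The filter at a mean of 1 CPM gave no value for Rspo3, Wnt1, Fzd9 and Wnt2b, nor the compared samples alone for the difference of responses. Leaving out 1 library gave 18 to 21 called genes between the genotypes in normoxia, 16 to 21 in hypoxia, 17 to 25 for hypoxia in WT, 17 to 21 for hypoxia in TAZKo and 1 to 6 for the difference of responses. That last count was 5 without WT normoxia replicate 1, 6 without WT hypoxia replicate 1, and 1 without any single library other than those 2 and WT normoxia replicate 3. With no filter it was 5 (4 with the higher TAZKo response, 1 with the lower), Lrp5, Wnt10a and Wnt7b among them; the cause was not tested. The difference of responses had 4 calls in the other pathway genes, 2 to 9 without 1 library. Omission of 1 library also moved the median of all tested genes, for hypoxia in WT by -0.016 to -0.056, including libraries of the TAZKo groups. The part of that shift in the lost calls was not tested. The lane as a covariate ended the hypoxia calls of Axin2, Sfrp4 and Wnt2 in WT and of Wnt6 and Ryk in TAZKo.

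With the replicate block the counts were 23, 21, 24, 21 and 4, against 21, 19, 22, 21 and 3. The block ended no call. With the block, Fzd2 (0.22, edgeR adjusted p = 0.0139) and Ror1 (0.38, edgeR adjusted p = 0.0206) gained a call between the genotypes in hypoxia, and Wnt7b (0.56, edgeR adjusted p = 0.0401) for the difference of responses. All 3 also passed with no filter (edgeR adjusted p = 0.0214, 0.0243 and 0.0198). The fold of Wnt5a rests on 2 and 1 counts in the TAZKo groups, so its size is known only within the intervals given. Changes of genes under 1 CPM (Wnt1, Wnt2b, Fzd9, Wif1 in WT, and Rspo3, Wnt5b and Sfrp1 in TAZKo) rest on few counts.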
